A study of Mus musculus with 3 samples.

Results

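The cells described here are rare barcodes of lineage-depleted mouse bone marrow that carried mRNA of Tcf7, Tox and Gata3, the transcription factor genes that mark innate lymphoid precursors, with little or no mRNA of the genes that mark T cells, NK cells, early B and T progenitors and basophils. A barcode had to hold at least 1000 UMIs (distinct mRNA tags) and 500 genes with at most 10% mitochondrial UMIs. It also needed at least 4 UMIs of Tcf7, Tox and Gata3 together, of which at least 1 was Tcf7 or Tox. Cd3e, Cd3d and Cd3g had to be at 0, Ncr1, Gzma, Eomes, Klrb1c and Prf1 at 2 UMIs or fewer in sum, Dntt at 1 or fewer, and Mcpt8 with Prss34 under 0.2% of UMIs. Of 19762 barcodes that passed the barcode filter, 130 met the rule (0.658%).

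Single marrow cells were sequenced from droplets, with 1 library for each of 3 genotypes. The control library is from Rit1M90I/+Mx1Cre- mice, which carry the Rit1-M90I allele without Cre and which its title also calls wild type. The Lztr1 knockout library is from Lztr1fl/fl;Mx1Cre+ mice, and the Rit1-M90I library from Rit1M90I/+;Mx1Cre+ mice. Every mouse was 8 weeks old when given 3 doses of pIpC (12 mg/kg), a mimic of viral RNA that induces interferon and with it Mx1-Cre, and marrow was taken 4 weeks later. Live cells negative for CD3, CD11b, Gr1, B220 and Ter119 were sorted. Mx1-Cre acts in many interferon-responsive cells, so either allele change is not limited to lymphoid cells, and the control lacks Cre, so an effect of Cre and that of either allele cannot be told apart. The labels do not say how many mice gave each library. RIT1 is a small GTPase of the RAS family and LZTR1 an adaptor that directs it to ubiquitin-dependent breakdown.

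Innate lymphoid cells are tissue-resident relatives of T cells that carry no rearranged antigen receptor. They arise in the marrow from interleukin-7 receptor-bearing lymphoid progenitors through steps that need TCF-1 (Tcf7), TOX, NFIL3, ID2 and GATA3. Precursors that pass through a stage with the factor PLZF (Zbtb16) can give several innate lymphoid groups, while precursors of group 2 cells carry much GATA3 and the receptors for interleukin-33 and interleukin-25.

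The deposited libraries held 67541728 UMIs in 8476 barcodes (control), 30398349 in 3014 (Lztr1 knockout) and 88560148 in 11573 (Rit1-M90I). After the barcode filter 7523, 2422 and 9817 barcodes were kept, with medians of 7021, 10140 and 6885 UMIs. The gated cells held 181321, 181458 and 404873 UMIs in all, and their medians were 3772, 6008 and 4543 UMIs. The libraries shared 2 to 12 kept barcode sequences in pairs and 0 among gated cells. Each value is from 1 library per genotype, so there is no test and no replicate spread. Intervals in parentheses are 95% intervals for counting error only, and levels are given as CPM, UMIs of a gene per 1000000 UMIs summed over the cells of a group.

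The sums that chose the cells were low in most of them. The total of Tcf7, Tox and Gata3 ran from 4 to 39 UMIs per cell with a median of 8, and the highest cell held 34 in the control, 24 in the Lztr1 knockout library and 39 in that of Rit1-M90I. All 3 genes were seen in 43 cells (11, 6 and 26 by library, control first, then Lztr1 knockout, then Rit1-M90I), exactly 2 in 81 and only 1 in 6. Tox was seen in 114 cells, Gata3 in 101 and Tcf7 in 82. Pooled levels were 575 CPM for Tcf7, 535 CPM for Tox and 554 CPM for Gata3, against 7.83, 5.07 and 8.04 CPM in all other kept barcodes. By library Tcf7 was at 711, 281 and 645 CPM, Tox at 667, 468 and 506 CPM and Gata3 at 574, 424 and 603 CPM. These values are what the rule asked for and are given as a description.

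Cells just inside and just outside the threshold both carried Id2 and Rora mRNA, with Id2 higher outside and Rora higher inside. The 22 cells with a sum of 4 held Id2 at 304 CPM and Rora at 414 CPM, and the 32 cells with a sum of 3 that met every other clause held 648 and 280 CPM. Il7r was at 304 CPM inside and 441 CPM outside, Zbtb16 at 16.9 and 33.4 CPM and Trbc1 at 101 and 247 CPM, so these were higher outside as well. Mpo, a neutrophil progenitor gene, was at 642 CPM inside and 294 CPM outside, but 69 of its 76 UMIs inside came from the Lztr1 knockout library. In the other libraries Mpo was lower inside, at 52.4 against 210.2 CPM in the control and 141 against 308 CPM in Rit1-M90I. Prtn3, another neutrophil progenitor gene, was at 549 CPM inside and 127 CPM outside. It was higher inside in Rit1-M90I, at 818 against 154 CPM, and in the Lztr1 knockout, at 738 against 113 CPM. In the control it was at 78.6 CPM inside and 105 CPM outside.

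The gated cells took 0.505% (0.358 to 0.693) of kept barcodes in the control, 0.991% (0.636 to 1.47) in the Lztr1 knockout library and 0.693% (0.538 to 0.877) in that of Rit1-M90I, which are 38, 24 and 68 cells. The share of the Lztr1 knockout was 1.96 times that of the control (1.18 to 3.26), and that of Rit1-M90I 1.37 times (0.923 to 2.04), an interval that holds 1. Both ratios use the same control library. A rule that counts UMIs picks more cells where libraries are deeper, so each barcode was also thinned to 3000 UMIs, which left out shallower barcodes. The ratios were then 1.83 (0.912 to 3.67) and 1.735 (1.02 to 2.95). With Mcpt8 and Prss34 both required at 0, the Lztr1 knockout ratio was 1.55 (0.854 to 2.83).

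Neighbouring lymphoid gates did not all follow that order. Cells with at least 4 UMIs of the NK genes of the rule and no Cd3 mRNA, called the NK gate, took 0.678%, 1.28% and 1.03% of kept barcodes, with ratios over the control of 1.89 (1.21 to 2.94) and 1.52 (1.09 to 2.12). Cells with at least 3 Cd3 UMIs, called the T gate, took 9.25%, 3.26% and 4.68%, with ratios of 0.353 (0.281 to 0.443) and 0.505 (0.451 to 0.566). Cells with at least 3 Dntt UMIs, called the early lymphoid gate, took 6.98%, 8.79% and 6.38%. T gate barcodes are part of the denominator of every share. With T gate barcodes left out of the denominator, the ratios of the gated cells were 1.84 and 1.305.

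**Figure D1:**
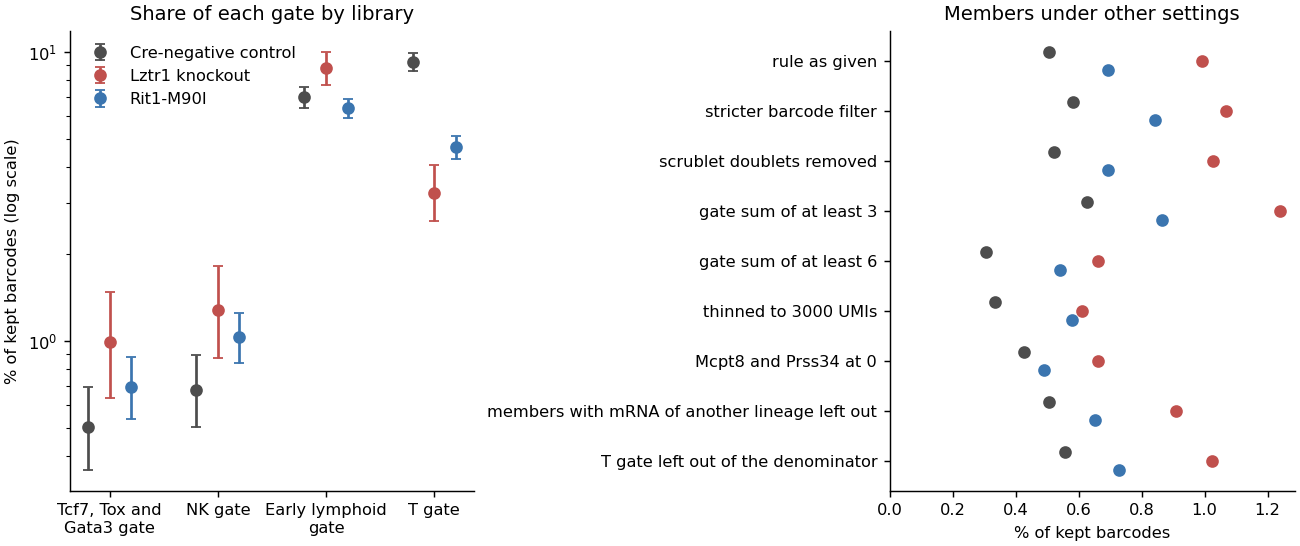
Left, the share of kept barcodes (%, log scale) in the gate of Tcf7, Tox and Gata3 and in 3 comparison gates, with exact binomial 95% intervals for each library. Right, the share of the gated cells in each library under other settings, with the Lztr1 knockout highest and the control lowest in each setting.

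Transcription factor genes of innate lymphoid development that the rule did not use were high in the gated cells. Against all other kept barcodes, 231 of 3422 genes with at least 50 CPM on either side were at least 2-fold higher in the gated cells (6.75%) and 112 were at least 2-fold lower (3.27%), on the scale of log2(CPM + 10), and the median over all 3422 was 0.07. Of 16 measured factors 13 were at least 2-fold higher and 0 lower, with a median log2 ratio of 2.56. The cells were picked on 3 genes that normally travel with these factors, so this comparison describes the gate and tests nothing.

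Rora, which encodes the nuclear receptor ROR-alpha needed for group 2 cells, was at 866 CPM (736 to 1012) in gated cells of the control, 380 CPM (296 to 481) in those of the Lztr1 knockout and 556 CPM (486 to 633) in those of Rit1-M90I, against 7.14 to 8.89 CPM in the other barcodes. Its pooled log2 ratio of 5.05 was the highest of any gene outside the rule that was tested. Id2, whose product holds back the E proteins that drive B and T cell fate, was at 1147 CPM (996 to 1314), 761 CPM (639 to 899) and 716 CPM (636 to 804) in the same order, against 36.8 to 43.9 CPM elsewhere. In every library both genes were higher in the gated cells than in the rest, and both were highest in the control.

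Zbtb16, the PLZF gene, was at 287 CPM (214 to 376), 121 CPM (76.0 to 184) and 173 CPM (135 to 218) by library, and 3.86 CPM in the pooled other barcodes. Tox2, a relative of Tox, was at 116, 55.1 and 88.9 CPM against 0.199 CPM. Bcl11b, a factor of T cell and group 2 commitment, was at 243, 93.7 and 138 CPM against 4.95 CPM, and Hes1, a target of Notch signalling, at 199, 77.2 and 119 CPM against 2.94 CPM. For these 4 genes the control was highest and the Lztr1 knockout lowest. Maf went the other way, with 143 CPM (93.7 to 210) in control cells, 187 CPM (130 to 262) in Lztr1 knockout cells and 193 CPM (152 to 240) in Rit1-M90I cells, all of whose intervals overlap.

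Lmo4, a LIM-domain cofactor, was at 908 CPM pooled against 128 CPM, Runx3 at 410 CPM against 70.8 CPM and Sox4 at 508 CPM against 177 CPM. Nfil3, one of the first factors of the lineage, was at 102 CPM against 13.1 CPM. Of the factors that were not 2-fold apart, Myb was at 229 CPM against 331 CPM and Runx1 at 91.2 CPM against 133 CPM. Zfp683, a factor of mature tissue-resident lymphocytes, had 0 UMIs in gated cells, which allows up to 3.91 CPM.

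Gm36723, a long noncoding RNA gene, ranked next after Rora, with 441 CPM (350 to 549), 160 CPM (107 to 230) and 301 CPM (250 to 360) against 2.57 CPM elsewhere. In GRCm38 it lies on chromosome 12 from 25303940 to 25471979 on the plus strand, and it starts 207 kb beyond the end of Id2 (25093799 to 25097140, minus strand). Its level in the NK gate was 166 to 255 CPM over the 3 libraries, and Id2 was high there too, at 714 to 836 CPM. In the T gate, with Id2 at 411 CPM pooled, and the early lymphoid gate, with Id2 at 15.9 CPM, it was lower, and the log2 ratios of Gm36723 in gated cells over those gates were 3.94 and 4.95.

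Of genes outside the rule that go with the name innate lymphoid precursor, Id2 and Rora were seen in most gated cells, but Zbtb16 and Icos in a minority. The genes of the rule normally travel with these, so the shares describe the gate and are no independent check of the name. Id2 was seen in 109 of 130 gated cells (83.8%, 76.4 to 89.7), Rora in 85 (65.4%, 56.5 to 73.5), Il7r in 83, Zbtb16 in 51 (39.2%, 30.8 to 48.2) and Icos in 45 (34.6%, 26.5 to 43.5). In a gate of erythroid cells (at least 10 UMIs of Klf1 and Car1), which should lack most of these genes and held a median of 18368 UMIs against 4529 in gated cells, Id2 was seen in 3.92% of cells, Rora in 1.05%, Zbtb16 in 2.34% and Icos in 0.283%. With every cell thinned to 3000 UMIs, which left out 32 gated cells, Id2 was seen in 73.5% of gated cells and 0.809% of erythroid cells, Rora in 59.2% and 0.283%, Zbtb16 in 32.7% and 0.485%, and Icos in 29.6% and 0.121%. At that depth Id2 was seen in 73.1% of NK gate and 58.7% of T gate cells. Its share thus did not set the gated cells apart from the NK gate. Rora was seen in 11.5% and 4.58% of those gates, Zbtb16 in 5.13% and 1.14% and Icos in 5.13% and 5.23%. Il7r was seen in 48.0% of gated, 19.2% of NK gate, 7.84% of T gate and 38.7% of early lymphoid cells. There were 12 gated cells (5, 4 and 3 by library) with no UMI of Id2, Rora or Il7r, and some of those cells held UMIs of Zbtb16 or Il18r1.

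**Figure D2:**
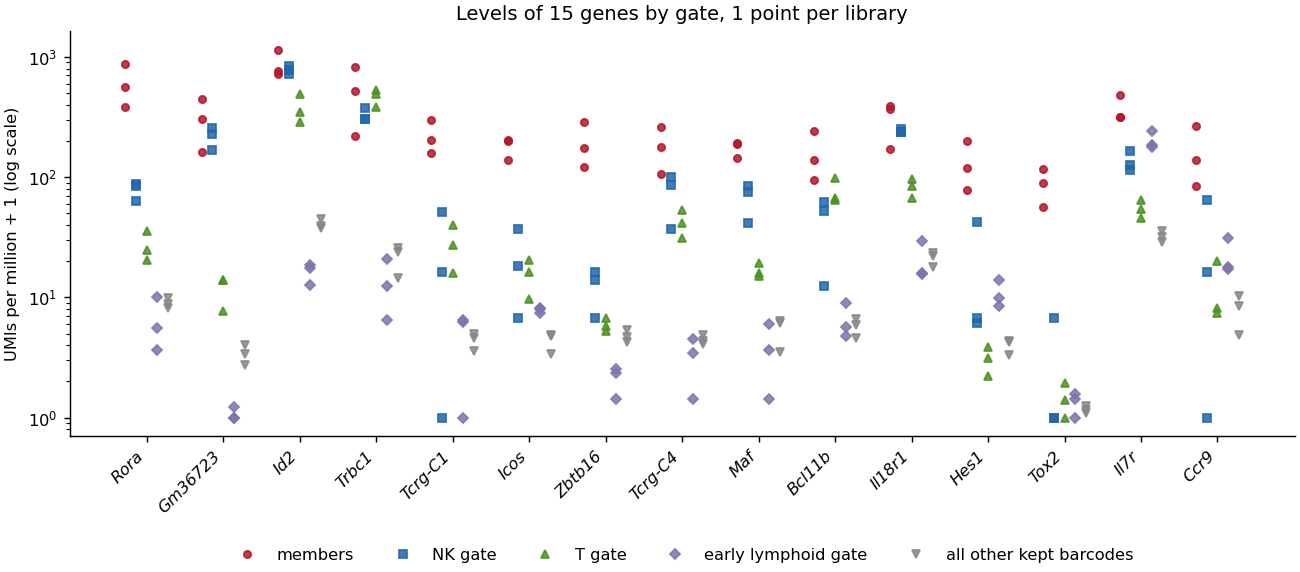
Level (CPM + 1, log scale) of the 15 genes with the highest ratio over the other barcodes, in the gated cells (members), the NK, T and early lymphoid gates and all other kept barcodes, with 1 point per library. The gated cells sit above the other kept barcodes for each gene, while Id2 is at a like level in the NK gate.

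Receptor genes of early innate lymphoid cells were also high. Of 14 measured receptor and surface genes 10 were at least 2-fold higher than in other barcodes and 0 lower, with a median log2 ratio of 2.03. Il7r, the interleukin-7 receptor chain on which lymphoid precursors depend, was at 480 CPM (384 to 592) in control cells, 314 CPM (238 to 407) in Lztr1 knockout cells and 314 CPM (262 to 373) in Rit1-M90I cells, against 30.7 CPM in the rest. Il18r1, an interleukin-18 receptor chain, was at 392, 171 and 366 CPM against 21.0 CPM. Itga4, the integrin chain alpha 4, was at 938 CPM pooled against 155 CPM. Ltb, the lymphotoxin beta gene, was at 345 CPM against 35.1 CPM. Ccr9, a chemokine receptor for gut and thymus, was at 138 CPM (89.2 to 204), 265 CPM (195 to 351) and 84.0 CPM (58.2 to 117) and was highest in the Lztr1 knockout.

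The stem cell factor receptor gene Kit and the progenitor receptor gene Flt3 were near the level of the other barcodes. Kit was at 104 CPM against 107 CPM and was seen in 40 gated cells. Flt3 was at 66.4 CPM against 60.9 CPM and was seen in 21 gated cells, 4 in the control, 7 in the Lztr1 knockout library and 10 in that of Rit1-M90I.

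Of 9 measured genes of interleukin-7 and gamma-chain signalling, 6 were at least 2-fold higher and 0 lower, with a median log2 ratio of 1.20. The survival gene Bcl2 was at 982, 865 and 706 CPM by library and 125 CPM in the pooled other barcodes. The feedback inhibitor Socs1 was at 75.6 CPM against 5.97 CPM, the kinase gene Jak1 at 259 CPM against 114 CPM and Stat3 at 109 CPM against 42.1 CPM.

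Genes of group 2 innate lymphoid cells were present, and those of activated or mature group 2 cells were at or near 0. All 6 measured genes of that list were at least 2-fold higher than in other barcodes, with a median log2 ratio of 2.52, and 18 of its 24 genes were below the level needed. Icos, a costimulatory receptor, was at 199 CPM (139 to 275), 138 CPM (89.2 to 203) and 203 CPM (161 to 251) by library against 3.29 CPM. Il17rb, a chain of the interleukin-25 receptor, was at 166, 88.2 and 101 CPM against 4.46 CPM, and Arg1, arginase 1, at 93.8, 49.6 and 101 CPM against 1.88 CPM. Il1rl1, the interleukin-33 receptor ST2, was at 84.7 CPM against 22.7 CPM. The effector cytokine genes Il5 and Il13 had 1.30 CPM each, and Klrg1, Areg, Ptgdr2 and Ramp3 had 0 UMIs.

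Of 12 group 3 genes only Tmem176a and Tmem176b reached the level needed, and neither was 2-fold apart from the other barcodes. Ahr, which encodes the aryl hydrocarbon receptor, was at 35.2 CPM against 2.82 CPM. Il22, Il23r, Il17a, Il17f, Ccr6 and Cd4 had 0 UMIs.

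T cell receptor constant genes were transcribed in the gated cells although Cd3e, Cd3d and Cd3g were excluded. All 7 measured T cell genes were at least 2-fold higher than in the other barcodes, with a median log2 ratio of 2.36, but 5 of the 20 genes of the list, Trac, Cd8a, Cd8b1, Cd6 and Ptcra, had 0 UMIs. The copies of these constant genes are alike, so UMIs can be assigned to the wrong copy. A stretch of coding exon that shows how far they differ was taken from GENCODE vM21 on GRCm38 and is printed with capitals at positions where the copies compared are not all the same. The 2 beta chain copies are on chromosome 6, plus strand, exon 3, with Trbc1 at chr6:41539229-41539335 and Trbc2 at chr6:41547772-41547878.
Trbc1: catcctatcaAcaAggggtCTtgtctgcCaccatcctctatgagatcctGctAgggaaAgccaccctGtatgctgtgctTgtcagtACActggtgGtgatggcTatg
Trbc2: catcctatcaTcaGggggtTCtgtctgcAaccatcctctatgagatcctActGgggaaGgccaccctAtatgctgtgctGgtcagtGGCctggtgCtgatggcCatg
The 3 gamma chain copies are on chromosome 13, with Tcrg-C1 at chr13:19216476-19216615 (plus strand, exon 3), Tcrg-C2 at chr13:19305063-19305202 (minus strand, exon 3) and Tcrg-C4 at chr13:19352201-19352340 (plus strand, exon 4).
Tcrg-C1: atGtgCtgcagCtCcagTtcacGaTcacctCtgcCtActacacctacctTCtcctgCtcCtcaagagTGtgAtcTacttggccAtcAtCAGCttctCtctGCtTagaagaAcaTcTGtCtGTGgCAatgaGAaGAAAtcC
Tcrg-C2: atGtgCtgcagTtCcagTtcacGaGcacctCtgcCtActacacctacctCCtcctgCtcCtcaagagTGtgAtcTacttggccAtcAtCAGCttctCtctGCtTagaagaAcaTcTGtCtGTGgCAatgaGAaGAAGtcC
Tcrg-C4: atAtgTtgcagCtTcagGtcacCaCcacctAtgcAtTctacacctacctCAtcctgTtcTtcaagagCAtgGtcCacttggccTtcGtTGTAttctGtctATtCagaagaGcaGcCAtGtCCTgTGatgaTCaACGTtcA
Trbc1 and Trbc2 differ at 15 of 107 positions there. Tcrg-C1 and Tcrg-C2 differ at 4 of 140, while Tcrg-C4 differs from either at 44. Over whole transcripts the coding parts of Trbc1 and Trbc2 were 95.6% identical and their 3' untranslated parts, where 3' tags fall, 53.3%. For Tcrg-C1 and Tcrg-C2 these were 94.6% and 93.5%, so UMIs of Tcrg-C1 and Tcrg-C2 are uncertain between the copies.

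Trbc1 was at 816 CPM (690 to 959) in gated cells of the control, 220 CPM (158 to 300) in those of the Lztr1 knockout and 516 CPM (449 to 591) in those of Rit1-M90I, and was seen in 69 of 130 cells. In the NK gate, which also had no Cd3 mRNA, Trbc1 was seen in 115 of 183 cells (62.8%, against 53.1% of gated cells). With cells thinned to equal depth these shares were 55.1% and 52.0%. Trbc1 without Cd3 mRNA thus did not set the gated cells apart from the NK gate. At that depth Tcrg-C1 was seen in 3.85% of NK gate and 26.5% of gated cells. In the T gate Trbc1 was at 494 CPM pooled and Trbc2 at 831 CPM, while in the gated cells Trbc2 was at 202 CPM. Trac, the alpha chain constant gene of alpha-beta T cells, was at 260 CPM in the T gate and at 0 UMIs in the gated cells. Tcrg-C1 was at 298, 204 and 158 CPM and Tcrg-C4 at 259, 105 and 175 CPM by library, against 30.3 and 45.4 CPM in the T gate. The gated cells therefore held beta and gamma constant transcripts and no alpha constant transcript at this depth.

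The marker lists of other cell types were checked in the gated cells as a whole, and not all were low. Stem and multipotent markers summed to 160, 303 and 284 CPM by library against 192, 164 and 160 CPM in the other barcodes. Pooled, 2 of 2 measured genes of that list were at least 2-fold higher. Conventional dendritic markers, a list that holds Id2, summed to 1248 CPM pooled against 798 CPM, with 1 of 2 higher. Monocyte markers summed to 477 against 1115 CPM and plasmacytoid dendritic markers to 732 against 914 CPM, with 1 gene higher in each. Basophil and mast cell genes outside the rule were low, with 7 of 8 at least 2-fold lower and 0 higher. Gata2 was at 5.21 CPM against 142 CPM, Fcer1a, an IgE receptor chain, at 1.30 CPM against 92.1 CPM, Ms4a2, another chain of it, at 2.61 CPM against 92.3 CPM, and Hdc, which makes histamine, at 3.91 CPM against 97.8 CPM. Apoe, a lipid carrier gene, was at 26.1 CPM against 269 CPM. The rule excluded basophils, so these low values follow from it in part.

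Neutrophil progenitor markers summed to 166 CPM in gated cells of the control, 1086 CPM in those of the Lztr1 knockout and 2551 CPM in those of Rit1-M90I, against 16611 to 19476 CPM in a gate of neutrophil progenitors, with Lcn2, Ltf, Ngp and Camp at 0. Erythroid markers summed to 143, 1648 and 627 CPM and plasma cell markers to 116, 121 and 1457 CPM. There were 6 gated cells (0, 2 and 4 by library) with at least 0.3% of UMIs from Elane, Mpo and Prtn3, at least 0.3% from Klf1, Car1 and globin genes, or at least 1% from immunoglobulin genes. In 1 of them, in Rit1-M90I, 48.2% of UMIs were immunoglobulin. Without these 6 cells the neutrophil sums were 166, 466 and 556 CPM, the erythroid sums 143, 77.6 and 717 CPM and the plasma cell sums 116, 134 and 172 CPM. The erythroid sum of Rit1-M90I thus did not come from these 6 cells, and its highest remaining cells, with 20531 and 24699 UMIs, held 0.214% and 0.219% of UMIs from Klf1, Car1 and globin genes. B lineage markers summed to 177, 44.1 and 183 CPM, against 177, 164 and 190 CPM in the other barcodes, with Ebf1 and Igll1 among the genes at 0. In the control and Rit1-M90I they were thus near the level of the other barcodes and not low. Scrublet called 3 of the gated cells doublets, all in Rit1-M90I.

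Set against the NK gate, the gated cells were set apart by factors of precursors and by the absence of NK receptors. Of 3503 genes 94 were at least 2-fold higher (2.68%) and 157 lower (4.48%). The highest were Zbtb16, with 188 CPM against 12.0 CPM, Tox2, with 87.3 CPM against 1.20 CPM, Il17rb, with 113 CPM against 4.81 CPM, Stab2, a scavenger receptor gene, with 82.1 CPM against 1.20 CPM, and Icos, with 186 CPM against 19.2 CPM. The lowest were the NK receptor genes Klre1, with 1.30 CPM against 351 CPM, and Klrk1, with 11.7 CPM against 678 CPM, then Xcl1, a chemokine, Ms4a4b and Klra7. Of 21 measured NK genes outside the rule 21 were lower, and 10 of 17 measured innate lymphoid factors were higher, with a median log2 ratio of 1.21. Id2 was not among them, at 829 CPM against 779 CPM. Both gates were chosen on NK genes, so the lower NK genes follow from the rule in part.

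Set against the T gate, 151 of 3408 genes were at least 2-fold higher (4.43%) and 189 lower (5.55%). Rora, Gm36723, Zbtb16, Lmo4 and Hes1 were the highest, with Rora at 588 CPM against 27.3 CPM and Lmo4 at 908 CPM against 67.9 CPM. Klre1, Trac, Klra7, Xcl1 and Ms4a4b were the lowest, with Klre1 at 384 CPM and Ms4a4b at 1250 CPM in the T gate. Of 15 measured T cell genes 2 were higher, which were Tcrg-C1 and Tcrg-C4, and 11 lower. Of 19 measured NK genes 17 were lower, with a median log2 ratio of -2.64, among them Klre1, Klra7 and Xcl1. The T gate had no clause on NK genes or basophils, which the rule for the gated cells has, so the lower NK genes follow from the rule in part.

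Set against the early lymphoid gate, 151 of 3393 genes were at least 2-fold higher (4.45%) and 93 lower (2.74%). Of 17 measured innate lymphoid factors 12 were higher and 1 lower, with a median log2 ratio of 2.76. Il7r was closer, at 353 CPM against 202 CPM, and was seen in 58.7% of early lymphoid cells and 63.8% of gated cells. Of 9 measured early lymphoid genes 0 were higher and 5 lower. Flt3 was at 66.4 CPM against 337 CPM and Mef2c, a factor of early lymphoid progenitors, at 245 CPM against 663 CPM. The rule capped Dntt at 1 UMI and this gate needed at least 3, so the lower early lymphoid genes follow from the rule in part.

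The gated cells fell on both sides of an equal balance of Gata3 with Tcf7 and Tox. In 48 cells (12, 10 and 26 by library) Gata3 UMIs outnumbered those of Tcf7 and Tox together, and these are called Gata3-leading. The other 82 cells (26, 14 and 42) are called Tcf7 and Tox-leading, and they include 7 cells (3, 1 and 3) with equal counts. The Gata3-leading share of gated cells was 31.6% in the control, 41.7% in the Lztr1 knockout library and 38.2% in that of Rit1-M90I. The split was drawn after the values had been seen, so what follows describes it, and the median depth of the sets differed, with 3098 UMIs in Gata3-leading and 5536 in Tcf7 and Tox-leading cells.

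**Figure D3:**
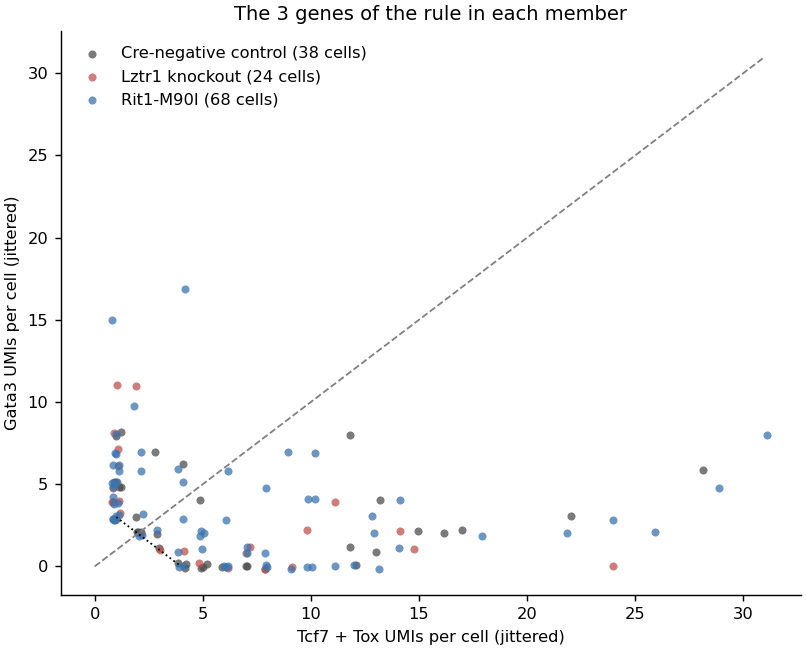
UMIs of Gata3 against UMIs of Tcf7 and Tox together in each of the 130 gated cells, with 1 jittered point per cell coloured by library. The dashed line marks equal numbers and the dotted line the threshold of 4; the 48 cells above the dashed line hold 1 to 4 Tcf7 and Tox UMIs, and every library has cells on both sides.

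Group 2 genes lay on the side of Gata3. Between the sets 257 of 3798 genes were at least 2-fold higher in Gata3-leading cells (6.77%) and 190 lower (5%), with a median of 0.02. Of 9 measured group 2 genes 8 were higher and 0 lower, with a median log2 ratio of 2.82. Without the 7 cells with equal counts, left out after seeing the data, 9 of 9 were higher, with a median of 2.97. Icos was at 530 CPM in Gata3-leading and 54.1 CPM in Tcf7 and Tox-leading cells, Il17rb at 314 and 36.1 CPM, Il1rl1 at 258 and 18 CPM and Arg1 at 202 and 43.3 CPM. Hlf, a factor of stem cells that is also on the list, was at 253 and 18 CPM, and Ly6a, the Sca-1 gene, at 225 and 10.8 CPM. These 6 genes were higher in the Gata3-leading cells of all 3 libraries.

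Receptors and factors divided between the sets. Ccr9 was at 413 CPM in Gata3-leading and 34.3 CPM in Tcf7 and Tox-leading cells, Maf at 450 and 75.7 CPM, Bcl11b at 300 and 95.6 CPM and Il7r at 633 and 245 CPM. On the other side Zbtb16 was at 84.5 and 227 CPM, Nfil3 at 14.1 and 135 CPM, Hes1 at 56.3 and 155 CPM, Runx3 at 155 and 509 CPM, Sox4 at 174 and 637 CPM and Kit at 42.2 and 128 CPM. Zbtb16 levels in the control were 286 CPM in Gata3-leading and 287 CPM in Tcf7 and Tox-leading cells, but 9 of the 11 Zbtb16 UMIs of the former lay in 1 cell. There Zbtb16 was seen in 3 of 12 and 14 of 26 cells. Bcl2 was lower in Gata3-leading cells at 239 against 1028 CPM, and so was Itga4 at 526 against 1096 CPM. Rora, at 840 and 491 CPM, and Id2, at 948 and 783 CPM, were within 2-fold.

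Genes off the lists that were far apart were named after their values were seen. Lztfl1 was at 741 CPM in Gata3-leading and 59.5 CPM in Tcf7 and Tox-leading cells, and Stab2 at 263 and 12.6 CPM. In Tcf7 and Tox-leading cells Igfbp4, an insulin-like growth factor binding protein gene, was at 653 CPM against 56.3 CPM, Nrgn, which encodes the calmodulin-binding protein neurogranin, at 444 CPM against 18.8 CPM and Cd24a, a surface antigen gene, at 189 CPM against 4.69 CPM. Each of these 5 genes kept its side in all 3 libraries.

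Shares of cells with a UMI were compared after thinning each cell to 2000 UMIs, which left 46 and 78 cells. Icos was then seen in 63.0% (47.6 to 76.8) of Gata3-leading and 8.97% (3.69 to 17.6) of Tcf7 and Tox-leading cells, against 70.8% and 13.4% unthinned. Zbtb16 was seen in 8.70% (2.42 to 20.8) and 35.9% (25.3 to 47.6), against 16.7% and 52.4% unthinned. Il1rl1 was seen in 47.8% and 5.13%, and 4 of the 6 unthinned Tcf7 and Tox-leading cells with Il1rl1 had equal counts. Il17rb was seen in 50% and 8.97%, Nrgn in 8.70% and 64.1%, and Kit in 8.70% and 26.9%. Il1rl1 was also seen in 46.8% of erythroid cells, and at 3000 UMIs in 12.3% of erythroid and 10.2% of all gated cells. Zbtb16 together with Icos, Il1rl1 or Il17rb was seen in 12 of 130 cells, Zbtb16 without them in 39, one or more of those 3 without Zbtb16 in 53 and none in 26.

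**Figure D4:**
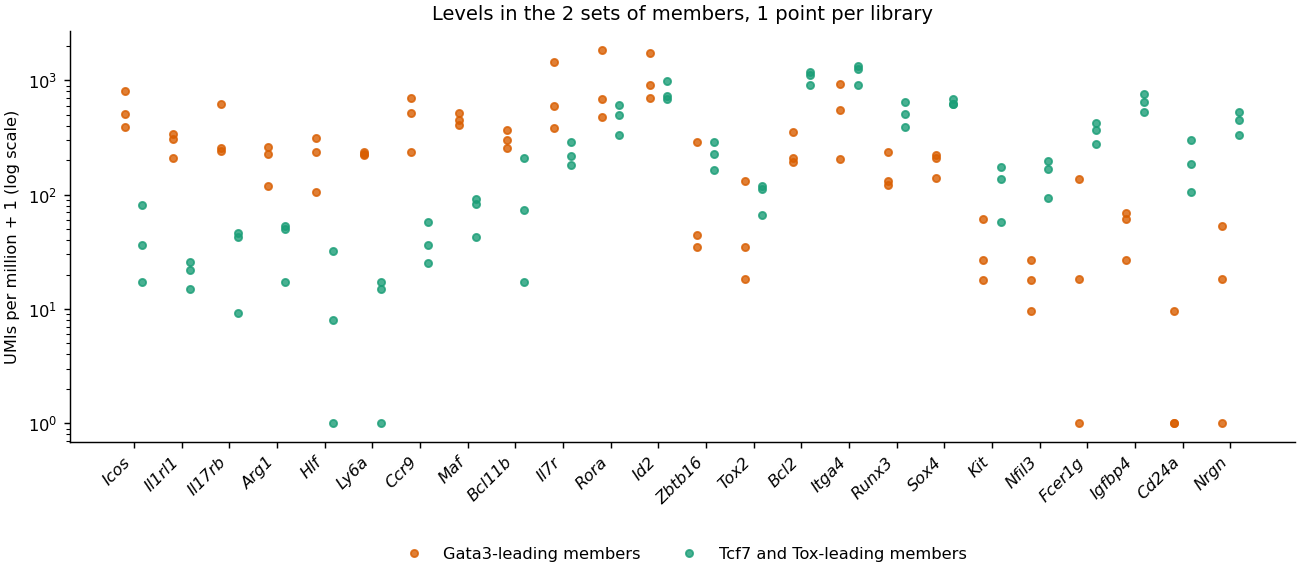
Level (CPM + 1, log scale) of 24 genes in Gata3-leading and in Tcf7 and Tox-leading gated cells, with 1 point per library. The group 2 genes on the left lie higher in Gata3-leading cells of all 3 libraries, and Nrgn, Cd24a and Igfbp4 on the right lie lower.

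Other lists between the sets were as follows. Of 8 measured NK genes 5 were lower in Gata3-leading cells and 0 higher, with Fcer1g at 46.9 against 363 CPM and Tyrobp at 113 against 438 CPM. Of 7 early lymphoid genes 3 were lower, among them Mef2c at 84.5 against 307 CPM. Of 18 mitosis genes 5 were higher and of 16 S phase genes 5 lower. Stem and multipotent markers were higher for 2 of 2 measured genes, with a median of 3.37. These were Hlf and Ly6a, which are also counted among the group 2 genes. Erythroid markers were lower in Gata3-leading cells for 5 of 5 genes, with a median of -2.58. Neutrophil markers were higher for 6 of 6 genes and plasma cell markers for 5 of 6. Without the 6 cells with mRNA of another lineage neutrophil and plasma cell markers became 0 of 3 and 1 of 3, erythroid markers were lower for 2 of 2 genes, with a median of -1.89, and group 2 genes were higher for 8 of 8, with a median of 3.13.

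The targeted genes were too scarce in the gated cells to check the labels there. Lztr1 had 2, 2 and 6 UMIs and Rit1 0, 1 and 8 UMIs in gated cells of the control, Lztr1 knockout and Rit1-M90I. In all other kept barcodes Lztr1 was at 17.5, 6.30 and 15.3 CPM, lowest in the library labelled Lztr1 knockout, and Rit1 at 8.90, 11.9 and 14 CPM. The labels do not name the exons that Cre removes, and 3' tags outside them would check nothing.

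Within the gated cells, summed levels of mitosis genes were higher in the Lztr1 knockout than in the control. Those of several innate lymphoid factors and T cell receptor constant genes were lower. Of 1792 genes with at least 100 CPM in either library, 100 were at least 2-fold higher in the Lztr1 knockout (5.58%) and 73 lower (4.07%), with a median over all of -0.001. The rule did not use genotype, but 38 control and 24 knockout cells from 1 library each stand behind the ratios, and cells of 1 library are not replicates. CPM sum UMIs over cells, so deep cells weigh most. The deepest knockout cells held 22386, 17288, 15577 and 14890 of 181458 UMIs and no UMI of Zbtb16 or Trbc1. Their Rora UMIs were 1, 0, 0 and 0, their Flt3 UMIs 1, 2, 6 and 11 and their mitosis UMIs 168, 120, 28 and 136. Those with 22386 and 17288 UMIs are the 2 with mRNA of another lineage. The mitosis, Flt3, factor and Trbc1 ratios thus share these cells, and the part of the cells with 15577 and 14890 UMIs was not tested.

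Of 12 measured mitosis genes 12 were at least 2-fold higher, with a median log2 ratio of 2.12. Ube2c, which helps the cell leave mitosis, had 4 UMIs in the control and 56 in the knockout (22.1 and 309 CPM), a ratio of 14 (5.17 to 53.1). Top2a, the DNA-untangling enzyme topoisomerase II alpha, was at 204 and 727 CPM, a ratio of 3.57 (2.46 to 5.28), with 26 of 37 control UMIs in 1 cell. Prc1, which builds the spindle midzone and is not on the list, had 2 and 46 UMIs, a ratio of 23.0 (6.01 to 196). Mki67 was at 116 and 507 CPM, but 37 of its 92 knockout UMIs lay in 1 cell. The genes also lay together in few cells: mitosis genes summed to at least 5 UMIs in 4 of 38 control, 6 of 24 knockout and 10 of 68 Rit1-M90I cells. After thinning to 3000 UMIs, at least 3 mitosis UMIs were seen in 3 of 27 (11.1%, 2.35 to 29.2), 6 of 20 (30%, 11.9 to 54.3) and 11 of 51 cells (21.6%, 11.3 to 35.3), and these intervals overlap.

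Mitosis genes summed to 706 CPM (589 to 839) in gated cells of the control, 3676 CPM (3402 to 3966) in those of the Lztr1 knockout and 1393 CPM (1280 to 1513) in those of Rit1-M90I. Without cells with mRNA of another lineage the sums were 706, 2673 and 1494 CPM, and 7 of 8 measured genes were 2-fold higher in the knockout. All other kept barcodes held 1935, 2307 and 1968 CPM, a narrower range. S phase genes summed to 1511, 1835 and 1489 CPM in gated cells and 2513, 2866 and 2447 CPM elsewhere, and 1 of 7 was higher in the knockout.

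Of 16 measured innate lymphoid factors 4 were at least 2-fold lower in the Lztr1 knockout and 0 higher, and the median log2 ratio of the list was -0.62. These were Rora, with a ratio of 0.439 (0.326 to 0.587), Zbtb16, with 0.423 (0.245 to 0.708), Bcl11b, with 0.386 (0.207 to 0.690), and Hes1, with 0.389 (0.194 to 0.738). Without the 2 knockout cells with mRNA of another lineage, 1 of 16 was 2-fold lower, which was Bcl11b, and the median was -0.31. The log2 ratio of Rora then went from -1.17 to -0.84, that of Zbtb16 from -1.18 to -0.85 and that of Hes1 from -1.26 to -0.94. Id2 had a ratio of 0.663 (0.531 to 0.826) and Lmo4 of 0.553 (0.441 to 0.691), and both were within 2-fold on the log2 scale.

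Of 12 measured receptor genes 4 were lower and 1 higher. Thy1, with 31 and 8 UMIs, had a ratio of 0.258 (0.102 to 0.574), Ltb of 0.330 (0.215 to 0.493), Kit, with 26 and 8 UMIs, of 0.308 (0.120 to 0.699) and Il18r1 of 0.436 (0.277 to 0.674). Flt3, with 5 and 26 UMIs, was higher by a ratio of 5.20 (1.96 to 17.3), and 11 of its 26 knockout UMIs lay in 1 cell. Without cells with mRNA of another lineage 3 were lower and 2 higher: Il18r1 was then within 2-fold, at a log2 ratio of -0.81, and Ccr9 joined Flt3 at 1.24. Il7r was at 480 and 314 CPM, a ratio of 0.655 (0.460 to 0.925), and no gene of the interleukin-7 list among 7 measured passed 2-fold.

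Trbc1 had 148 UMIs in the control and 40 in the knockout, a ratio of 0.270 (0.186 to 0.385), and was seen in 24 and 9 cells. Its log2 ratio of -1.84 was -1.5 without cells with mRNA of another lineage. Tcrg-C4 was more than 2-fold lower as well, at 259 and 105 CPM, but not without those cells, at a log2 ratio of -0.90. Of 6 measured early lymphoid genes 2 were higher, which were Mef2c, at 193 and 435 CPM with a ratio of 2.26 (1.5 to 3.46), and Cd34, at 60.7 and 198 CPM with a ratio of 3.27 (1.63 to 7.12). The summed NK genes outside the rule were at 2261, 1113 and 1242 CPM and the summed T cell genes at 2024, 948 and 1418 CPM by library, so the control was highest for both lists, as was its T gate share. Their part in these differences was not tested.

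Of the 6 genes with the greatest ratios in the Lztr1 knockout, 2 were Ube2c and Prc1 and the other 4 lay largely in single cells. The globin genes Hbb-bs, Hbb-bt and Hba-a1 had 53, 44 and 39 UMIs in 1 knockout cell and 0 UMIs in the control. Mpo had 12 UMIs in the control and 105 in the knockout, of which 65 were in 1 cell, and its log2 ratio of 2.95 was 1.79 without cells with mRNA of another lineage. At the other end Igf2 had 30 UMIs and Tmsb15a 19 UMIs in 1 control cell each and 0 in the knockout, and 14 of 19 control UMIs of Bcas1 were in 1 cell. Ccl5, a chemokine of NK and T cells, had 133 and 23 UMIs, a ratio of 0.173 (0.106 to 0.270), with 58 of the control UMIs in 1 cell. Igtp, an interferon-induced GTPase, had 19 and 3 UMIs, and Prmt5, an arginine methyltransferase, 20 in 15 cells and 4 in 3 cells.

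Fewer genes were 2-fold apart between Rit1-M90I and the control, a comparison with 68 rather than 24 cells on the mutant side. Of 1699 genes 28 were at least 2-fold higher (1.65%) and 25 lower (1.47%), with a median of -0.04. The control library is the same as in the comparison above, so a value that is high or low in the control moves both ratios. None of 14 measured innate lymphoid factors passed 2-fold in either direction, with a median log2 ratio of -0.44, which was -0.17 without cells with mRNA of another lineage. Rora had a ratio of 0.642 (0.521 to 0.792), Zbtb16 of 0.603 (0.415 to 0.880), Id2 of 0.624 (0.521 to 0.750) and Il7r of 0.654 (0.494 to 0.869). Trbc1 had a ratio of 0.632 (0.510 to 0.786) and Ltb of 0.591 (0.452 to 0.774). These 6 ratios lay between 0.5 and 1, and each of their intervals was below 1.

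Hlf was the group 2 gene past 2-fold in Rit1-M90I, with 5 UMIs in 3 control cells and 45 UMIs in 24 cells, a ratio of 4.03 (1.61 to 13). The Lztr1 knockout had 14 UMIs of Hlf in 6 cells, a ratio of 2.80 (0.952 to 9.93). Hlf was a gene of the Gata3-leading set, at 104, 237 and 312 CPM there by library. It is also on the stem and multipotent list, where it was the 1 measured gene in Rit1-M90I, at a log2 ratio of 1.69. Of 3 measured mitosis genes 1 was higher, which was Ube2c, with a ratio of 5.93 (2.19 to 22.6), and Mki67 had a ratio of 1.47 (0.892 to 2.53).

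Granule genes led the Rit1-M90I ratios, and many UMIs of Elane, Prtn3 and Ms4a3 lay in 1 cell each. Elane had 1 UMI in the control and 174 in Rit1-M90I, 112 of them in 1 cell, Prtn3 had 9 and 413, with 211 in 1 cell, and Ms4a3 had 0 and 51, with 28 in 1 cell. Ctsg and Mpo were among the 6 highest too. Jchain, the antibody joining chain, had 6 and 483 UMIs, 460 of them in 1 cell. Without cells with mRNA of another lineage the log2 ratio of Elane went from 4.83 to 2.16, that of Prtn3 from 4.11 to 1.95, that of Ctsg from 2.94 to 0.93, that of Mpo from 2.83 to 1.12 and that of Jchain from 4.80 to 0.56. Erythroid markers were also higher, for 2 of 2 measured genes, with a median log2 ratio of 1.92 that was 2.10 without those cells. Car1 had 8 UMIs in the control and 89 in Rit1-M90I, 49 of them in 1 cell, and Car2 had 15 and 122, with 68 in 1 cell. The part of these cells in other differences was not tested beyond the values given. The lowest were Igf2 and Tmsb15a, which rest on 1 control cell each, then Ccl5, with a ratio of 0.145 (0.100 to 0.206), Ms4a4b, with 19 and 8 UMIs, Cacna1e, a calcium channel gene, with 20 and 9, and AW112010, a transcript of activated lymphocytes, with 80 UMIs in 27 control cells and 46 in 33 cells. AW112010 was lower in both mutants, with ratios of 0.387 (0.247 to 0.593) in the Lztr1 knockout library and 0.258 (0.175 to 0.375) in that of Rit1-M90I.

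**Figure D5:**
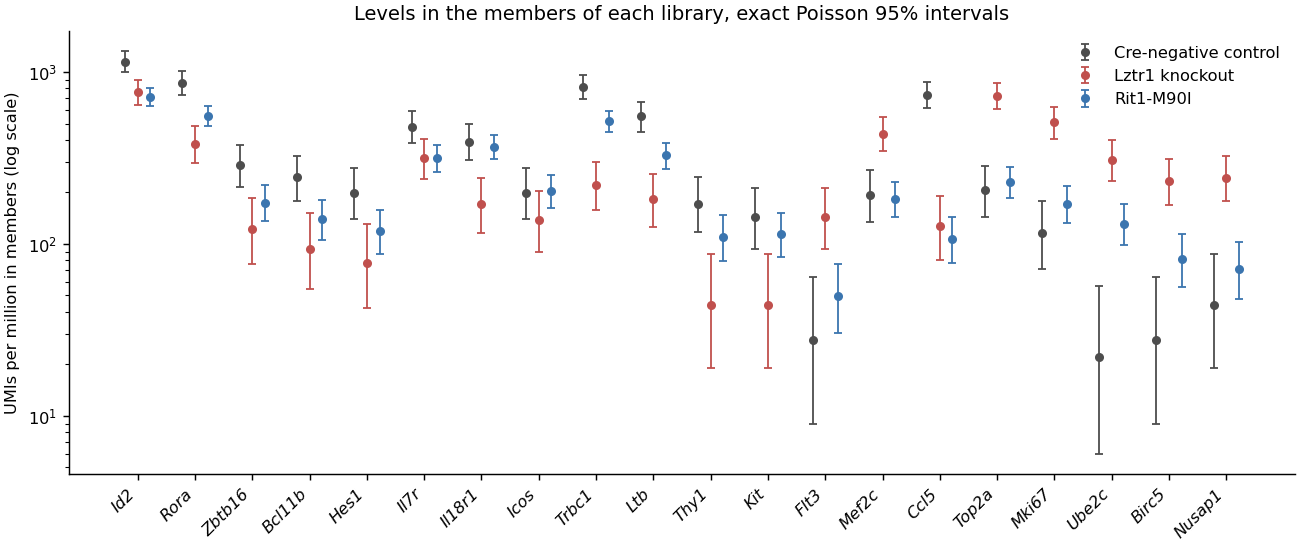
Level (CPM, log scale) of 20 genes in the gated cells of each library with exact Poisson 95% intervals. Rora, Zbtb16, Trbc1 and Ltb are highest in the control and lowest in the Lztr1 knockout, and Top2a, Mki67, Ube2c and Birc5 are highest in the Lztr1 knockout; counting error alone sets the bars.

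Few genes of the RAS pathway were measured between genotypes in these cells, and none was 2-fold apart. Over all genes 5.58% were 2-fold higher and 4.07% lower in the Lztr1 knockout, and 1.65% and 1.47% in Rit1-M90I. With so few genes a count of 0 is near those shares and is no result about the pathway. Of 6 measured GTPase, ligase and cascade genes 0 passed 2-fold in the Lztr1 knockout, with a median log2 ratio of -0.21, and 0 of 7 did in Rit1-M90I, with a median of -0.12. No gene of the ERK output list reached 100 CPM in the gated cells compared, so that list has no value here. Against all other barcodes 1 of 13 measured RAS pathway genes was at least 2-fold higher in gated cells, which was the exchange factor gene Rasgrp1 at 59.9 CPM against 4.26 CPM. That count is near the 6.75% of all genes that were higher in that comparison. Of interferon-induced genes, which respond to pIpC, 1 of 3 measured was at least 2-fold higher in the Lztr1 knockout library and 1 of 3 in that of Rit1-M90I, in both cases Ifitm2. Without cells with mRNA of another lineage Ifitm2 was under 100 CPM in each library and no measured gene of the list passed 2-fold, while the log2 ratios of Ifitm2 were 1.47 and 2.04.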

How the data were processed

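Single-cell 3' mRNA was measured in 3 libraries, 1 per genotype. For 32285 genes the authors deposited whole-number UMI counts of every called cell, without normalization. Per the file headers the matrices come from Cell Ranger 6.1.1. The submitters' processing notes list mm10 and Seurat 4.1.0. Annotation release and cell calling settings were not given in the sources used here.

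Each barcode was gated on its counts, and doublets were called with scrublet in scanpy 1.11.5 (250, 84 and 450 kept barcodes, 3.32%, 3.47% and 4.58%) and kept, with their removal as an alternative. UMIs were summed per group, and CPM carry exact Poisson intervals. Shares carry Clopper-Pearson intervals, ratios of shares Katz intervals and ratios of CPM exact conditional intervals, all at 95%. Log2 ratios use CPM + 10, which understates the change of scarce genes. A gene was counted at 2-fold or more, from 50 CPM on either side between gates and 100 CPM in either library between genotypes. With 1 library per genotype no test was run. The counting was checked on simulated counts. Python 3.11.15, numpy 2.4.6, scipy 1.17.1 and pandas 2.3.3 were used.

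The members of the gate and the 26 gene lists were chosen with earlier results of these data known. Named genes were the 14 genes of the rule with Lztr1 and Rit1, the 15 highest and 5 lowest against other barcodes, the 5 highest and 5 lowest against the NK and T gates, the 6 highest and 6 lowest of each genotype comparison, and the leading genes of each list with further lymphoid genes. Genes that divide the Gata3-leading and the Tcf7 and Tox-leading cells, and Birc5 and Nusap1, were named after their values were seen. Ribosomal protein, mitochondrial and immunoglobulin genes were left out of the ranks. Coordinates and sequences are from GENCODE vM21 on GRCm38. Alternatives covered the barcode filter, doublets, the gate's thresholds, thinning, the pseudocount, the level filter and cell weighting.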

Additional observations from a re-analysis of the deposited data

Results flagged for a closer look

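In the Lztr1 knockout library, 4 barcodes that failed the barcode filter met the gene part of the rule, among 592 that failed. Barcodes of this kind were not used in any comparison, and they numbered 1 among 1756 in Rit1-M90I and 0 among 953 in the control. This was singled out because the count lies above 3, the floor used for UMI counts. That floor is no expected number of barcodes, so the flag is not a test.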

How the results depend on the processing

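No paired analysis was possible because each genotype has 1 library. The order of the 3 shares was the same in every setting tried, and both share ratios moved by less than their counting interval. The control share of 0.505% was 0.306% with a sum of at least 6 and 0.334% after thinning to 3000 UMIs, the Lztr1 knockout share of 0.991% was 0.612% after thinning, and the Rit1-M90I share of 0.693% was 0.489% with Mcpt8 and Prss34 at 0.

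Counts of genes 2-fold higher and lower moved with the pseudocount and the level filter because these set which genes can pass. With a pseudocount of 50 CPM they were 85 and 50 against other barcodes, 33 and 82 against the NK gate, 54 and 97 against the T gate, 74 and 35 against the early lymphoid gate, 57 and 29 for the Lztr1 knockout and 17 and 8 for Rit1-M90I. From 20 CPM the 4 gate comparisons gave 389 and 191, 197 and 259, 275 and 297, and 267 and 142, and with no level filter 439 and 226, 245 and 303, 329 and 350, and 321 and 166. Between genotypes they were 286 and 254 (Lztr1 knockout) and 107 and 93 (Rit1-M90I) from 50 CPM, and 1112 and 1080, and 609 and 476, with no filter. With each cell weighted equally, 183 genes were lower against other barcodes, 166 higher against the NK gate, 259 higher against the T gate, 253 higher and 150 lower against the early lymphoid gate, 131 lower in the Lztr1 knockout and 51 lower in Rit1-M90I. With doublets removed 244 genes were higher against the T gate. With a sum of at least 6, 129 genes were lower in the Lztr1 knockout and 74 higher and 79 lower in Rit1-M90I, and with a sum of at least 3, 11 were lower in Rit1-M90I. Except where a setting itself changes which genes can pass, the cause was not tested.

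Of the single genes named by rule, 2 changed sign in Rit1-M90I with a sum of at least 6, Tmsb15a to a log2 ratio of 0.36 and Ms4a4b to 0.15. Leaving out the 6 cells with mRNA of another lineage, an alternative chosen after seeing the data, left 53 of the 100 higher and 52 of the 73 lower genes of the Lztr1 knockout past 2-fold, and 16 of 28 and 22 of 25 in Rit1-M90I. With each cell weighted equally, 46 of the 100 higher and 48 of the 73 lower genes of the Lztr1 knockout stayed past 2-fold. For Rit1-M90I 15 of 28 and 13 of 25 did, so much of each list depends on how cells are weighted.

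Depth limits the genotype comparison. A gene with 0 UMIs in gated cells can be at up to 16.5 CPM in the control or the Lztr1 knockout and up to 7.41 CPM in Rit1-M90I. A replicate spread between mice cannot be given.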
